A study of Mus musculus with 46 samples.

Results

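MHC class I molecules display peptides from inside a cell on its surface, where CD8 T cells read them. The 10 genes described here make and load these molecules, and they were taken by name: the heavy chains H2-K1 and H2-D1 and the light chain B2m, the peptide transporter Tap1 and Tap2 with the loading factor Tapbp (tapasin), the immunoproteasome subunits Psmb8, Psmb9 and Psmb10, and the transactivator Nlrc5. They are 10 of the 56980 genes in the hSS2 count table and of the 56941 in that of hSS1, and all 10 passed the filter on low counts in both. Their levels were read beside Ptprc, which encodes CD45, a surface phosphatase of leukocytes.

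RNA sequencing was done on 46 mouse synovial sarcomas, each from a different mouse, to ask what the loss of a BAF-family chromatin remodeling subunit does to tumors driven by SS18::SSX. All mice were of mixed CB57Bl/6-svJ strain, carried the human fusion at Rosa26 (SS18::SSX2 in hSS2, SS18::SSX1 in hSS1) and received TATCre, a cell-permeable Cre protein, in the limb at 8 days of age. Tumors were collected as whole frozen tissue at 2 to 6 months. In hSS2 there were 13 control tumors, whose labels name no floxed subunit gene, 8 Pbrm1-fl, 8 Arid1a-fl and 8 Arid1b-fl tumors, the last 3 groups being homozygous for floxed alleles of Pbrm1 (a PBAF subunit) or of Arid1a or Arid1b (alternative CBAF subunits). In hSS1 there were 5 control and 4 Pbrm1-fl tumors. TATCre acts where it is injected and is not specific to a cell type. No sample was sorted, and in such bulk tissue fewer cells of a type and less RNA per cell cannot be told apart.

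Class I expression is set by inducible transcription. Interferon-gamma induces class I genes through elements called GAS and through IRF1, and NLRC5 joins a complex on a module in class I promoters that includes a cyclic AMP response element (CRE) and a CCAAT box. Most nucleated cells express class I genes, and leukocytes express them strongly. The inducible subunits PSMB8, PSMB9 and PSMB10 replace the constitutive catalytic subunits of the proteasome, and TAP then carries the peptides into the endoplasmic reticulum.

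Most of these genes sit in the MHC of mouse chromosome 17, and their promoters show which of these elements they share. In the GENCODE M21 annotation of GRCm38, Tapbp lies at chr17:33915899-33929292, H2-K1 at chr17:33996017-34000347, Psmb9 at chr17:34181987-34187764, Tap1 at chr17:34187553-34197225, Psmb8 at chr17:34197721-34201454, Tap2 at chr17:34203527-34216321 and H2-D1 at chr17:35262730-35267499. The other 3 are B2m at chr2:122147686-122153083, Psmb10 at chr8:105935735-105938444 and Nlrc5 at chr8:94434356-94527272. RefSeq promoters (GRCm38.p6) were matched for 8 of the 10, all but Tap2 and Nlrc5. In the 250 bases before each RefSeq start, both strands were searched for GAS (TTCNNNGAA), the CRE core (TGACG) and the CCAAT box (CCAAT). RefSeq starts differ from the GENCODE ends given above. For Tapbp, H2-D1, Psmb8 and Psmb9 the whole window lies inside the GENCODE span of the gene, and for Psmb10 part of it does. The 5 stretches here show the CRE core and CCAAT box of H2-K1 and B2m, the CRE core of H2-D1 and Tap1, and the GAS match of Psmb8. Capitals mark the matches, a CCAAT box on the other strand reading ATTGG, and each sequence runs 5′ to 3′ on the strand of its gene.
H2-K1, chr17:34000349-34000398, minus strand: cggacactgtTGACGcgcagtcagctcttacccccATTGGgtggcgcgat
B2m, chr2:122147599-122147648, plus strand: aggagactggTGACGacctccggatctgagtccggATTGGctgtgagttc
H2-D1, chr17:35262981-35263009, plus strand: ccgggacactgaTGACGcgctggcaggtc
Tap1, chr17:34187458-34187486, plus strand: cccagagacaggTGACGacagagggtcct
Psmb8, chr17:34198088-34198116, plus strand: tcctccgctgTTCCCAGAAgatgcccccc

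The CRE core was in 5 of the 8 promoters (H2-K1, H2-D1, B2m, Tap1 and Psmb9), against 19.8% of the 27025 genes with RefSeq windows of this length. These 5 and Tapbp held a CCAAT box, which 37.5% of those genes hold. Neither motif was particular to the members. Of 18 other class I pathway genes with windows, 9 held the CRE core and 11 a CCAAT box. In H2-K1, H2-D1 and B2m the CCAAT box began 25 bases after the start of the CRE core, the same distance in all 3. A GAS was matched only in Psmb8 (8.13% of all genes with windows), and Psmb10 held none of these motifs. Over 121 bases laid side by side from 80 before the CRE core, H2-K1 and H2-D1 were identical at 108 (89.3%). The RefSeq starts of Psmb9 and Tap1 lie 225 bases apart on opposite strands. Their GENCODE models overlap, and the CRE core found for each is the same 5 bases. The promoters were first searched for 2 more elements, ISRE and kappaB, and those searches are not reported here. A match is a run of letters, not a bound site.

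**Figure D1:**
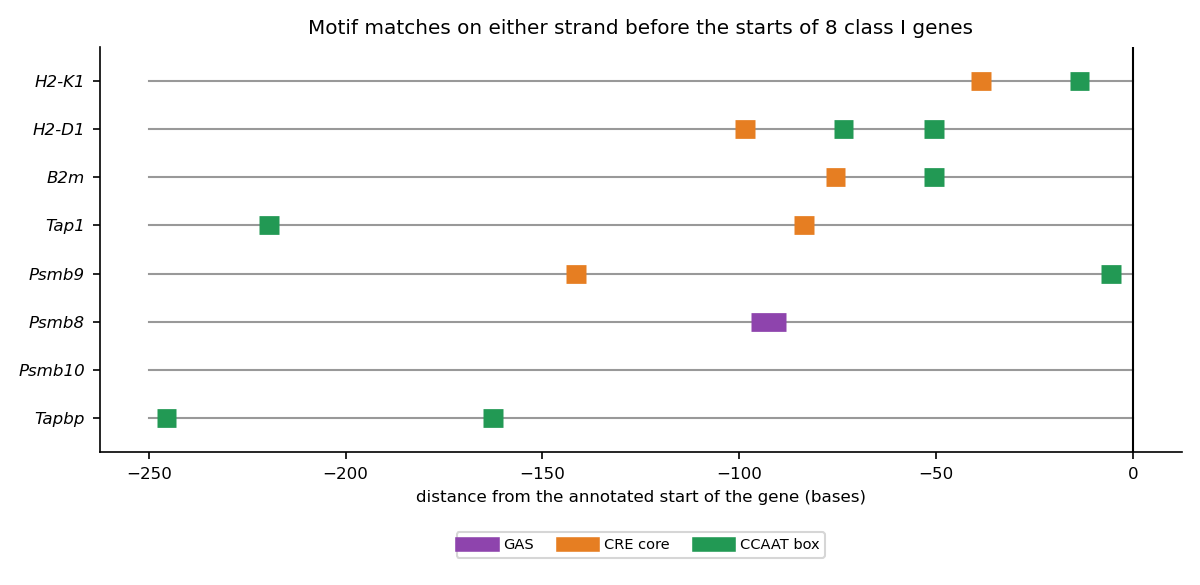
Positions of the motif matches in the 250 bases before the RefSeq start of 8 class I genes. The x axis is the distance from the start in bases, each line is 1 gene, and colored blocks are matches on either strand. In H2-K1, H2-D1 and B2m a CCAAT box follows the CRE core at 25 bases, and Psmb10 has no block.

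Facts of the libraries bear on what follows. Total counts were 10.6 to 21.3 M in hSS2 and 10.1 to 14.1 M in hSS1, and no 2 libraries of a group were as alike as counting noise would make them. Counts over a whole gene cover only in part what a floxed allele loses. Pbrm1 was at 171 to 316 CPM (counts per M counts of the TMM-scaled library size) in hSS2 control and 95.0 to 138.6 in Pbrm1-fl tumors, and Arid1a was at 229 to 276 CPM in Arid1a-fl tumors against 238 to 587 in controls. The library labelled hSS2 control replicate 9 had 238 CPM of Arid1a, within the Arid1a-fl range. Without it the same members passed in every hSS2 comparison. Arid1b overlapped between Arid1b-fl (111 to 347 CPM) and control tumors (222 to 686). In hSS1, Pbrm1 was at 316, 275, 338, 358 and 373 CPM in controls and 209, 252, 102 and 226 in Pbrm1-fl tumors, which did not overlap. Mouse numbers followed genotype: all hSS2 Pbrm1-fl mice were numbered 2000 and over, all Arid1a-fl under 1000 and all Arid1b-fl from 1000 to under 2000, whereas the controls had 5 under 1000, 4 from 1000 to under 2000 and 4 of 2000 and over. Each comparison was therefore also made with the controls of the same range. The synovial sarcoma markers, 5 genes summed, were at 256 to 506 CPM in hSS2 control and 214 to 311 in Pbrm1-fl tumors, and they were detected in all 6 groups; none passed with edgeR, and 4 of the 5 had an unadjusted p under 0.05, with a median log2 fold change of -0.72.

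Levels differed widely between the genes, but 9 of the 10 had the same groups at the ends of their range. For all but Tapbp, the mean CPM in hSS2 was highest in Pbrm1-fl and lowest in Arid1a-fl tumors, with control and Arid1b-fl means between them that differed by less than the spread between tumors. Per kilobase of exon in hSS2 controls, B2m had the highest mean level, 592 CPM per kb, followed by H2-D1 at 153.6, Tapbp at 121.5 and H2-K1 at 69.3. The transporter chains and Nlrc5 were lower, with Tap2 at 12.6, Tap1 at 8.54 and Nlrc5 at 5.40 CPM per kb. Of the immunoproteasome subunits, Psmb10 was at 7.66, Psmb8 at 3.04 and Psmb9 at 2.93 CPM per kb, the last 2 differing by less than the spread between tumors. H2-K1 and H2-D1 are near copies of each other and of H2-Q and H2-T genes, and how reads that fit several genes were counted is not given in the sources used here, so their levels are uncertain.

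In hSS2, Pbrm1-fl tumors carried more RNA of the transporter and immunoproteasome genes than control tumors. Tap1, Tap2, Psmb8, Psmb9 and Psmb10 rose, by 1.43-fold to 2.73-fold, 5 of the 10 members, where 3.4% of the 20083 genes tested were higher. H2-K1 was 2.17-fold higher but missed the threshold, and H2-D1, B2m, Nlrc5 and Tapbp did not pass. The median log2 fold change was 0.78 over the 10 members and -0.0042 over all genes.

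Tap2, one chain of the peptide transporter, was the gene that separated the groups best. Its level ran from 32.4 to 61.4 CPM with a median of 50.4 in the 13 controls. The 8 Pbrm1-fl tumors held 68.5 to 92.3 CPM, with a median of 88.0. Every Pbrm1-fl tumor was above every control. The log2 fold change was 0.84 (SE 0.15, quasi-likelihood F-test of edgeR, adjusted by Benjamini-Hochberg over all genes tested, adjusted p = 0.000566).

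Tap1, the other chain, ran from 27.4 to 71.3 CPM (median 45.1) in controls and from 55.9 to 119.5 (median 80.5) in Pbrm1-fl tumors. Above every control stood 6 of the 8. Its log2 fold change was 0.83 (SE 0.19, edgeR adjusted p = 0.00559). Tapbp, which holds empty class I molecules at the transporter, did not follow its partners. Its medians were 384.8 CPM (284.5 to 648.5) in controls and 444.7 (393.3 to 520.3) in Pbrm1-fl tumors. All 8 Pbrm1-fl tumors were above the control median of Tapbp, and none was above the highest control. Its log2 fold change was 0.03 (SE 0.16, edgeR adjusted p = 0.935), a sign that turns when control replicate 2, 3, 6 or 9 or Pbrm1-fl replicate 1 is left out (-0.04 to 0.09 over all omissions).

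The immunoproteasome subunits rose together, Psmb10 least. Psmb8, the inducible chymotrypsin-like subunit, ran from 4.36 to 19.4 CPM (median 10.6) in controls. In Pbrm1-fl tumors it ran from 12.7 to 45.5 CPM (median 26.6), and 6 of 8 were above every control. The log2 fold change of Psmb8 was 1.45 (SE 0.34, edgeR adjusted p = 0.00772). Psmb9, the inducible replacement of the caspase-like subunit, had 3.71 to 20.6 CPM (median 10.03) in controls and 17.7 to 35.2 (median 22.9) in Pbrm1-fl tumors. Only the lowest 3 of the Pbrm1-fl tumors overlapped the controls. Its log2 fold change was 1.20 (SE 0.26, edgeR adjusted p = 0.00327). Psmb10, the inducible trypsin-like subunit, had 8.87 to 19.04 CPM (median 12.8) in controls and 16.2 to 24.6 (median 17.003) in Pbrm1-fl tumors, with 3 above every control. It rose by a log2 fold change of 0.51 (SE 0.14, edgeR adjusted p = 0.0248), and lost the call without Pbrm1-fl replicate 1 (adjusted p = 0.0535) or 2 (0.0536).

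RNA of the class I molecules themselves was more scattered. H2-K1 ran from 56.5 to 370.7 CPM (median 135.5) in controls and from 200.05 to 691 (median 433.6) in Pbrm1-fl tumors, of which 5 were above every control and all 8 above the control median. Its log2 fold change was 1.12 (SE 0.37, edgeR adjusted p = 0.0562). The adjusted p of H2-K1 passed the threshold when any of hSS2 control replicates 4, 5, 8 or 13, Pbrm1-fl replicate 3, Arid1b-fl replicate 6 or Arid1a-fl replicate 7 was left out (0.0365 to 0.0493), and with DESeq2 (0.0415). H2-D1 had medians of 304.5 CPM (115.2 to 818) in controls and 562 (274 to 1068) in Pbrm1-fl tumors, a log2 fold change of 0.65 (SE 0.36, edgeR adjusted p = 0.287). B2m, which pairs with every heavy chain, overlapped almost wholly, at 195.5 to 917.5 CPM in controls and 293.5 to 1049 in Pbrm1-fl tumors. Its log2 fold change was 0.26 (SE 0.32, edgeR adjusted p = 0.676). Nlrc5 had medians of 40.5 CPM (6.66 to 128.2) and 63.2 (34.8 to 154.2), a log2 fold change of 0.73 (SE 0.46, edgeR adjusted p = 0.361).

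**Figure D2:**
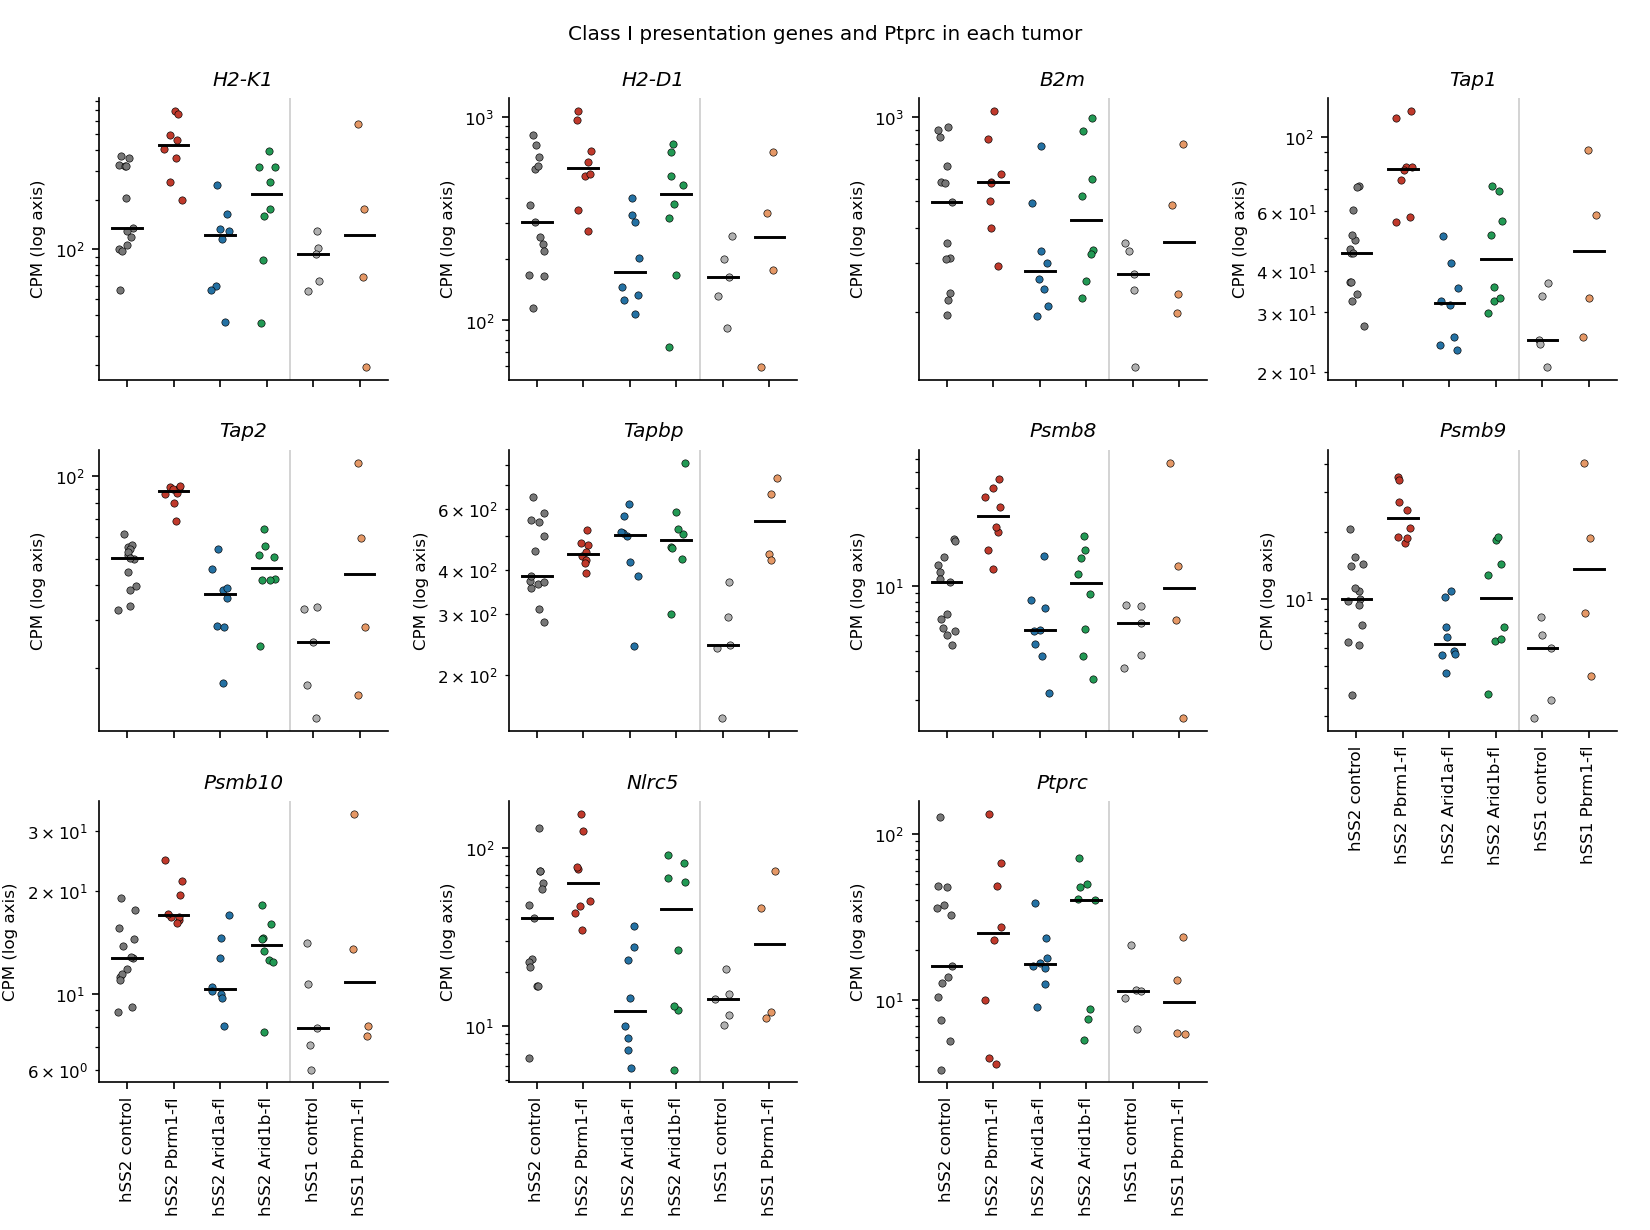
Level of each class I gene and of Ptprc in every tumor, in CPM on a log axis, by genotype group, with 1 point per tumor and a bar at the group median; the grey line divides hSS2 from hSS1. In the Tap2 panel the 8 hSS2 Pbrm1-fl points, 68.5 to 92.3 CPM, lie above all 13 control points, while the Ptprc points of these groups cover nearly the same range.

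The level of Ptprc was then read as a marker of leukocyte content, since leukocytes also express these genes. In hSS2 it also rose with skeletal muscle and adipocyte markers, as given further below. Ptprc ranged from 3.83 to 125.0 CPM (median 16.02) in controls and from 4.12 to 131.1 (median 25.3) in Pbrm1-fl tumors, a log2 fold change of 0.37 (SE 0.57, edgeR adjusted p = 0.747). The 10 leukocyte markers, summed, overlapped as widely, at 33.9 to 502 CPM and 32.9 to 620, and none of the 10 passed with edgeR or had an unadjusted p under 0.05. Their log2 fold changes were nonetheless all positive, 10 of 10 with a median of 0.40, as were those of 8 of 8 macrophage markers (median 0.39), 5 of 5 T cell markers and 4 of 4 dendritic cell markers, where the median over all genes was -0.0042. The summed T cell markers were at 0.767 to 34.9 CPM in controls and 0.803 to 50.1 in Pbrm1-fl tumors, the summed NK cell markers at 0 to 7.73 and 0.061 to 9.93, and the summed macrophage markers at 70.8 to 485 and 37.3 to 737. None of the 5 T cell, 1 NK cell and 8 macrophage markers tested passed with edgeR, and 1, a T cell marker, had an unadjusted p under 0.05. DESeq2 was not counted over the lists.

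Tap2 and Ptprc can be set side by side in each Pbrm1-fl tumor. In Pbrm1-fl replicates 1 to 8, Ptprc was at 131.1, 67.05, 10.02, 23.04, 27.6, 48.5, 4.47 and 4.12 CPM. In the same order Tap2 was at 91.0, 86.6, 68.5, 90.5, 89.4, 86.3, 79.7 and 92.3 CPM. Replicates 7 and 8 had the lowest Ptprc of the group, near the lowest control, and their Tap2 was above that of all 13 controls. Psmb8 ran at 39.9, 45.5, 21.3, 35.2, 16.6, 30.4, 12.7 and 22.8 CPM, so that it was highest in the 2 tumors with most Ptprc and lowest in replicate 7.

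With log2 CPM of Ptprc as a covariate, 7 of the 10 members were higher in Pbrm1-fl than in control tumors, against 5.09% of the genes tested. This fit takes 1 slope common to all groups, but slopes within groups were unequal. For H2-K1 they were 0.55 in control, 0.26 in Pbrm1-fl, 1.26 in Arid1a-fl and 0.61 in Arid1b-fl tumors. Whether slopes differed between groups was not tested. H2-K1 joined the called genes with a log2 fold change of 1.21 (SE 0.26, edgeR adjusted p = 0.00267), and so did Nlrc5 with 0.88 (SE 0.29, adjusted p = 0.0458). The 5 called before remained, with log2 fold changes of 0.49 for Psmb10 to 1.47 for Psmb8. H2-D1 came to 0.67 (edgeR adjusted p = 0.0874), B2m to 0.22 (0.606) and Tapbp to 0.04 (0.914). With the mean of the 10 leukocyte markers as covariate, 6 passed, against 4.87% of genes, H2-K1 among them (1.17, edgeR adjusted p = 0.00273). Other lists also moved in the fit with Ptprc. Of the 5 synovial sarcoma markers, Sox2 (-1.50), Bcl2 (-0.73) and Krt18 (-1.90) fell, and the 7 skeletal muscle markers had a median of -3.35, 5 of them with an unadjusted p under 0.05 and none passing with edgeR. Their part in the class I values was not tested.

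Restricting the controls changed more calls than Ptprc did. Against the 4 controls numbered 2000 and over alone, only Tap2 passed (log2 fold change 0.86, edgeR adjusted p = 0.0296), and 0.536% of genes were higher, although 6 of 8 Pbrm1-fl tumors stood above all of these controls for Tap1 and again for Psmb8. Log2 fold changes there were 0.79 for Tap1 (SE 0.28, adjusted p = 0.134), 1.64 for Psmb8 (SE 0.53, 0.0941), 1.15 for Psmb9 (SE 0.38, 0.110), 1.34 for H2-K1 and 0.28 for Psmb10 (SE 0.20, 0.582). With these controls and Ptprc as covariate together, H2-K1, Tap1, Tap2, Psmb8 and Psmb9 passed (edgeR adjusted p = 0.0016 to 0.0266), against 1.11% of genes, and Psmb10 did not (0.26, adjusted p = 0.483). Muscle RNA also varied, with summed muscle markers at a median of 9416 CPM (13.0003 to 92328) in controls and 446 (12.1 to 33098) in Pbrm1-fl tumors. With muscle markers as covariate 6 members passed, against 3.69% of genes, and H2-K1 came to 1.37 (edgeR adjusted p = 0.0113).

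**Figure D3:**
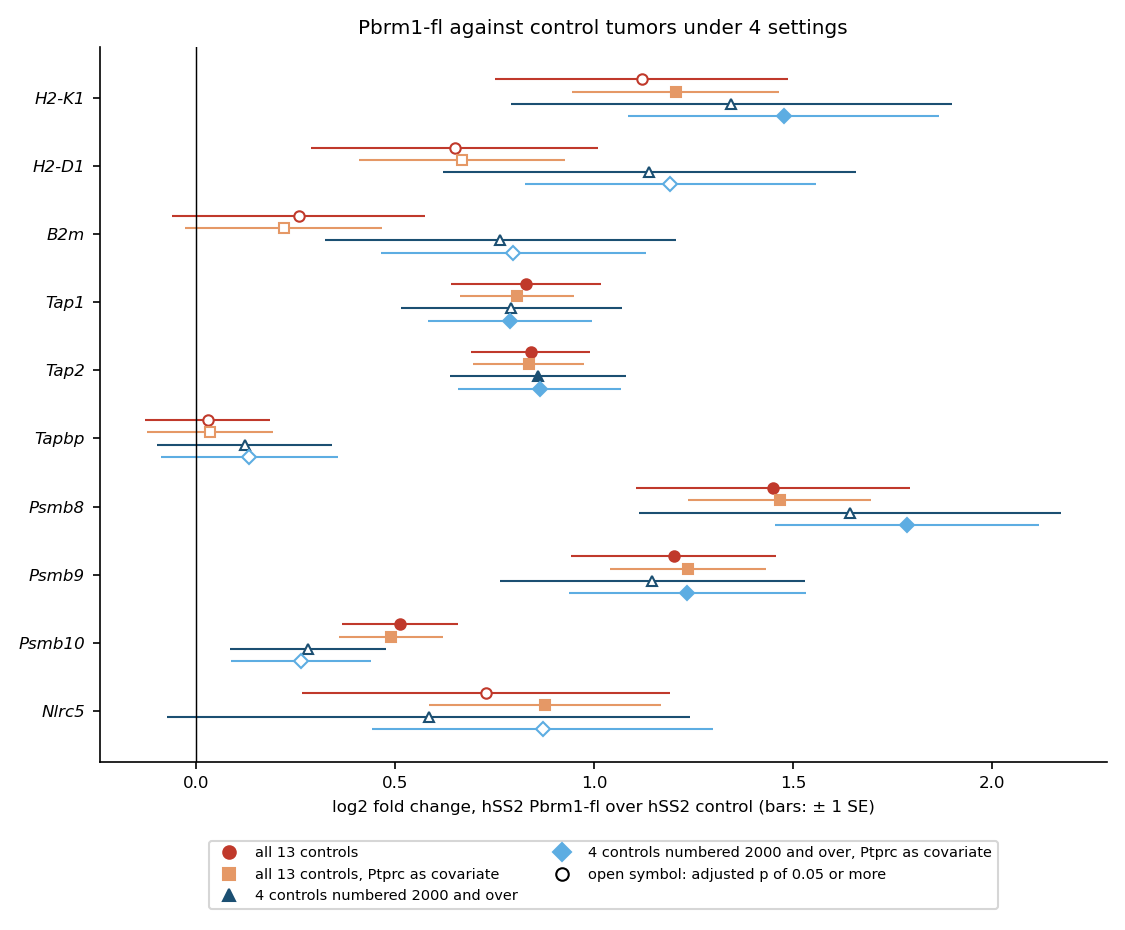
Log2 fold change of each class I gene in hSS2 Pbrm1-fl over hSS2 control tumors (x axis, bars of 1 SE) under 4 settings, with open symbols where the adjusted p is 0.05 or more. Tap2 stays near 0.85 and filled under all 4 settings, Tapbp stays near 0 and open, and H2-K1 is filled only where Ptprc is a covariate.

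Around these genes, genes of the wider class I pathway changed in both directions in hSS2 Pbrm1-fl tumors. Of 19 tested genes of the wider pathway (23 listed), 5 were higher and 3 lower, with a median of 0.27. The proteasome activator subunits Psme1 (0.71) and Psme2 (0.76) and the class I-like genes H2-M3 (0.95), H2-T22 (0.76) and H2-Q4 (1.24) rose. Cd1d1 (-1.20) and Mr1 (-0.57), which present lipids and metabolites, and the Fc receptor chain Fcgrt (-1.22) fell, these values all being log2 fold changes. None of the 14 constitutive proteasome genes passed with edgeR or had an unadjusted p under 0.05 (median 0.10). Of 22 tested interferon and class I regulators, Irf2 (0.38) and Socs1 (0.75), an inhibitor of interferon signaling, rose, and none fell (median 0.13).

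Against Arid1a-fl tumors, the other extreme of hSS2, the Pbrm1-fl excess took in the heavy chains and Nlrc5 too. Here 8 of the 10 members were higher, against 6.79% of genes. Psmb8 was at 2.20 to 15.2 CPM (median 5.32) in Arid1a-fl tumors, and 7 of 8 Pbrm1-fl tumors were above all of these, with a log2 fold change of 2.12 (SE 0.41, edgeR adjusted p = 0.000785). Nlrc5 was at 5.83 to 36.4 CPM (median 12.2) in Arid1a-fl tumors, and its log2 fold change was 2.18 (SE 0.55, edgeR adjusted p = 0.00725). H2-K1, at 36.4 to 246.5 CPM (median 122.8), differed by 1.91 (SE 0.43, edgeR adjusted p = 0.00342). Every Pbrm1-fl tumor was above every Arid1a-fl tumor for Tap1, Tap2 and Psmb9, whose log2 fold changes were 1.33, 1.25 and 1.79. H2-D1 differed by 1.51 and Psmb10 by 0.68, whereas B2m (0.79, edgeR adjusted p = 0.147) and Tapbp (-0.06) did not pass. B2m passed without Arid1a-fl replicate 4 (edgeR adjusted p = 0.0467). Ptprc itself differed by 1.07 (SE 0.65, edgeR adjusted p = 0.302), and with it as covariate the same 8 passed, against 7.93% of genes.

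The T cell gene Cd3e (log2 fold change 3.35) and the dendritic cell factor Zbtb46 (0.80) were also higher in Pbrm1-fl than in Arid1a-fl tumors, and the summed T cell markers reached 9.35 CPM in Arid1a-fl and 50.1 in Pbrm1-fl tumors. Their part in the class I difference was not tested. In the wider pathway 10 of 19 tested genes were higher, led by H2-Q6 (2.64), H2-Q7 (2.63) and H2-Q4 (2.38), and 4 were lower, namely Calr, Canx, Pdia3 and Fcgrt. Irf1 (0.98) and Socs1 (0.96) were among 5 regulators that rose. These groups share no range of mouse numbers, so genotype and range cannot be told apart here. As the difference of 2 effects, each formed against the controls of its own range, only Tap2 passed (1.26, edgeR adjusted p = 0.0219), against 1% of genes, and with Ptprc as covariate 7 did, against 2.91%.

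Against Arid1b-fl tumors the excess was in RNA of the transporter and of 2 of the immunoproteasome subunits. Tap1, Tap2, Psmb8 and Psmb9 were higher, 4 of 10, against 1.65% of genes. Tap2 was at 24.1 to 63.9 CPM (median 46.4) in Arid1b-fl tumors, below all 8 Pbrm1-fl tumors, with a log2 fold change of 0.88 (SE 0.17, edgeR adjusted p = 0.00193). For Tap1 it was 0.81 (SE 0.21, edgeR adjusted p = 0.0229), for Psmb9 1.16 (SE 0.30, 0.0191) and for Psmb8 1.42 (SE 0.40, 0.0323). H2-K1 came to 1.02 (SE 0.42, edgeR adjusted p = 0.174). Without Arid1b-fl replicate 1, Tap1 (edgeR adjusted p = 0.0542) and Psmb8 (0.0630) lost the call, and Psmb8 also did without Pbrm1-fl replicate 2 or 4 or Arid1b-fl replicate 2, 6 or 8. With Ptprc as covariate 6 passed, against 2.49% of genes, H2-K1 and Nlrc5 being added. As the difference of effects against controls of their own ranges, none passed with edgeR, where 0.047% of genes were higher without Ptprc and 0.113% with it. An unadjusted p under 0.05 was found for 5 members without Ptprc and 8 with it. Over all genes it was found for 2125 of 21272 without Ptprc and 2544 of 21271 with it. DESeq2 was not run in this way.

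Arid1a-fl tumors lay at the low end of the hSS2 range without passing the test. None of the 10 members was called against control tumors with edgeR, where 3.17% of the 20083 genes tested were. An unadjusted p under 0.05 was found for 6 members and for 4621 of all genes. DESeq2 called 1 member, Nlrc5, and 7.6% of all genes. Nlrc5 was below the median of all 13 controls in all 8 Arid1a-fl tumors, at 5.83 to 36.4 CPM. Its log2 fold change was -1.46 (SE 0.50, edgeR adjusted p = 0.0837; DESeq2 adjusted p = 0.0305). With Ptprc as covariate it came to -1.19 (SE 0.31) and passed (edgeR adjusted p = 0.0274) as 1 of the 10, where 5.26% of genes did, and with muscle markers as covariate it came to -0.82 and did not. Tap2 had an Arid1a-fl median of 37.1 CPM (17.6 to 54.3) and a log2 fold change of -0.41 (edgeR adjusted p = 0.112), which passed without Arid1a-fl replicate 3 (-0.52, 0.0454). H2-D1 (-0.86), H2-K1 (-0.79), Psmb9 (-0.59) and Tap1 (-0.50) were the other 4 under an unadjusted p of 0.05. Tapbp alone had a positive value (0.09). Ptprc was at 9.06 to 38.1 CPM (median 16.4), a log2 fold change of -0.70 from controls (edgeR adjusted p = 0.485), although 5 of the 8 tumors were above the control median. Of the wider pathway, the peptide-loading chaperone Calr rose (0.62). Markers of several other cell types had negative log2 fold changes in the same comparison, though none passed with edgeR and DESeq2 was not counted over them. The median log2 fold change was -2.52 over 5 T cell markers (3 with an unadjusted p under 0.05), -0.96 over 4 dendritic cell markers (2 of them) and -3.00 over 3 adipocyte markers (all 3). The 1 tested NK cell marker came to -2.97 and the 1 B cell marker to -1.94, each with an unadjusted p under 0.05. The summed T cell markers nonetheless had medians of 3.49 CPM in Arid1a-fl and 3.46 in control tumors, with maxima of 9.35 and 34.9. Medians of the summed NK cell, B cell, dendritic cell and adipocyte markers were lower in Arid1a-fl than in control tumors. With Ptprc as covariate the T cell gene Cd3e passed (-1.81, edgeR adjusted p = 0.0432). The part of these cells in the class I values was not tested. Against only the controls numbered under 1000, the range of all Arid1a-fl mice, medians were lower in Arid1a-fl tumors for all members but Tapbp. The gaps were unequal. Medians in these controls and in Arid1a-fl tumors were 22.96 and 12.21 CPM for Nlrc5 and 45.08 and 32.05 for Tap1. For H2-K1 they were 128.8 and 122.8 CPM, and for Psmb10 10.95 and 10.32. The Ptprc median was higher in Arid1a-fl tumors, at 16.41 against 12.64 CPM.

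Arid1b-fl tumors covered the range of the controls. H2-K1 was at 35.6 to 394.4 CPM (median 216.4), Psmb8 at 2.69 to 20.1 (median 10.3) and Nlrc5 at 5.71 to 91.4 (median 45.6). Log2 fold changes from control ran from -0.04 (Tap2, SE 0.15) to 0.21 (Tapbp, SE 0.16). None was called by edgeR, none had an unadjusted p under 0.05 and DESeq2 called 0; of all genes, 0.0548% were called. SEs of 0.37 for H2-K1 and 0.47 for Nlrc5 leave room for sizable differences in those genes. Between Arid1a-fl and Arid1b-fl tumors no member passed with edgeR or DESeq2 and 6 had an unadjusted p under 0.05, with 0.0996% of genes called and 2517 of 20083 under that unadjusted p. Nlrc5 differed most there (-1.44, SE 0.53, edgeR adjusted p = 0.266).

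**Figure D4:**
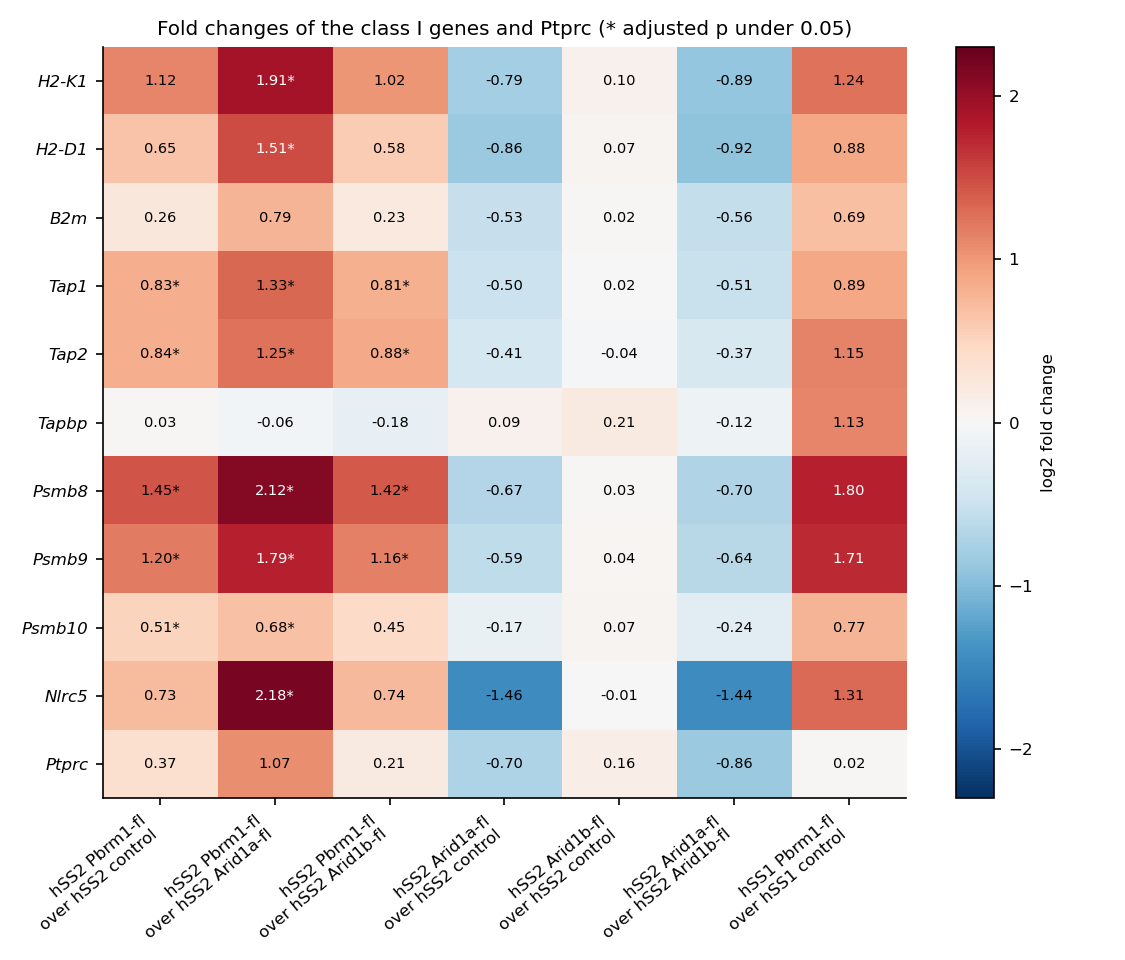
Log2 fold change of each class I gene and Ptprc (rows) in the 7 comparisons between groups (columns), as numbers on a blue to red scale, with an asterisk where the edgeR adjusted p is under 0.05. Asterisks fill the columns of hSS2 Pbrm1-fl over control, Arid1a-fl and Arid1b-fl for Tap1, Tap2, Psmb8 and Psmb9; the columns share groups and are not independent.

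Within hSS2 groups, most of the class I genes tracked Ptprc across tumors. In a fit with group and log2 CPM of Ptprc, which takes 1 slope common to all groups, 8 of the 10 had a positive slope that passed, where 15.4% of genes did. Nlrc5 had the steepest slope, 0.61 log2 units per log2 unit of Ptprc (SE 0.08), followed by H2-K1 and Psmb8 at 0.44 (SE 0.07 each), H2-D1 at 0.42 and B2m at 0.33. Psmb9 (0.28), Tap1 (0.21) and Psmb10 (0.11, edgeR adjusted p = 0.0217) had flatter slopes. Tap2 had a slope of 0.10 (SE 0.04, edgeR adjusted p = 0.0600) and Tapbp one of -0.02 (SE 0.04, adjusted p = 0.773). Tap2 passed when control replicate 1 or 12, Pbrm1-fl replicate 8 or Arid1a-fl replicate 1 was left out, and Psmb10 failed without control replicate 4 (adjusted p = 0.0750) or Pbrm1-fl replicate 1 (0.0645). Slopes against Ptprc were not particular to immune genes, since 7 of 7 skeletal muscle and 3 of 3 adipocyte markers also passed with positive slopes, as did 8 of 8 macrophage markers and 5 of 5 tested T cell markers. Whether class I RNA came from leukocytes or from tumor cells was not tested.

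**Figure D5:**
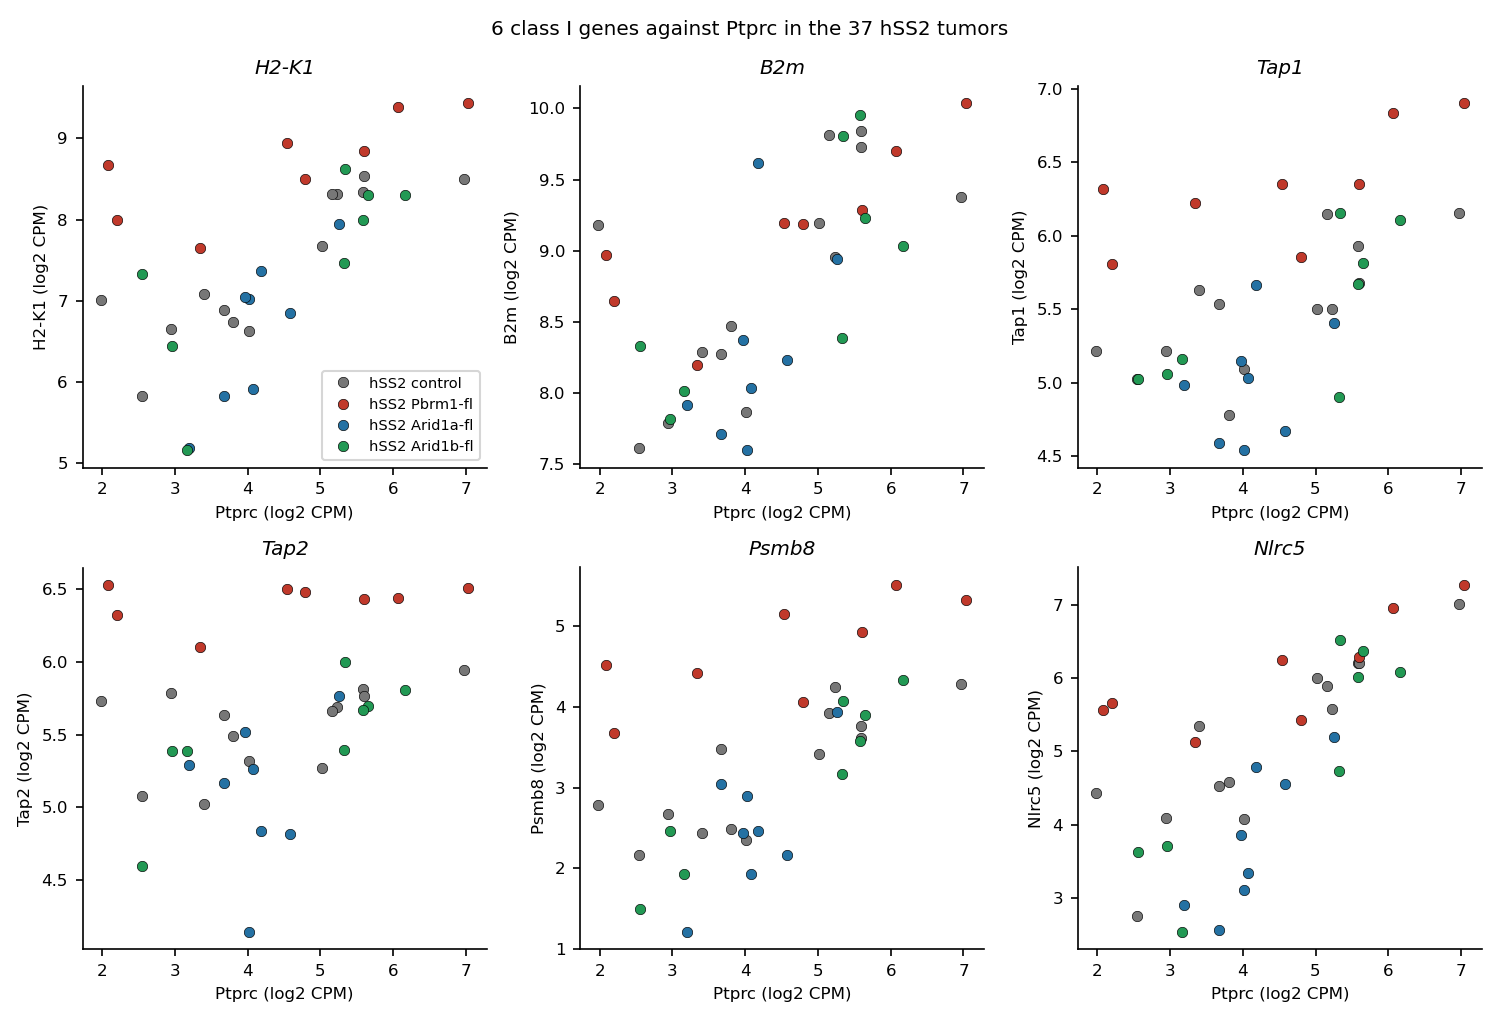
Level of 6 class I genes (y axes, log2 CPM) against Ptprc (x axes, log2 CPM) in the 37 hSS2 tumors, with 1 point per tumor colored by group. In the Tap2 panel the Pbrm1-fl points form a flat band above the other groups at every Ptprc level, and in the Nlrc5 panel all groups climb with Ptprc, with slopes within groups of 0.71 in control, 0.34 in Pbrm1-fl, 1.33 in Arid1a-fl and 0.93 in Arid1b-fl tumors.

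The 3 genes most like the class I set were class I genes, and the next 7 were not. Over the 37 hSS2 tumors, the group-centered log2 CPM of H2-Q4 had r = 0.92 with the mean profile of the 10 members, H2-T22 also 0.92 and H2-Q7 0.88, where the median over 17277 genes was -0.02. The next were 9330175E14Rik (0.87), Mir142hg (0.85), Gpr132 (0.85), Kmo, Arhgap15, Lpxn and Zbp1 (0.84 each). The model of 9330175E14Rik, chr8:94422898-94435103, overlaps the start of Nlrc5. In the 9 hSS1 tumors the r of H2-Q4 was 0.94, of H2-T22 0.76, of H2-Q7 0.90 and of Mir142hg 0.37. Of the members, each being part of the mean, H2-D1 (0.93) and Nlrc5 (0.92) lay closest to it in hSS2 and Tapbp farthest (0.23). The points share library depth and tissue content, and H2-Q4, H2-Q7 and H2-T22 can share reads with H2-K1 and H2-D1.

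In hSS1 the Pbrm1-fl tumors were few and uneven. No member passed with edgeR, which called 1 of all 17786 genes tested (0.00562%). An unadjusted p under 0.05 was found for 4 members (Tapbp, Psmb9, Tap1 and Nlrc5) and for 3059 of all genes. DESeq2 called 1 member, Tapbp, and 6.27% of all genes. All 10 log2 fold changes were positive, with a median of 1.14 against 0.01 over all genes. Tapbp was at 239, 243, 150, 370 and 294 CPM in controls and at 735, 444, 662 and 428 in Pbrm1-fl tumors. All 4 Pbrm1-fl tumors were above all 5 controls, with a log2 fold change of 1.13 (SE 0.27, edgeR adjusted p = 0.125, DESeq2 adjusted p = 0.00897).

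For the other 9 members, replicate 3 of the hSS1 Pbrm1-fl group was the highest tumor. H2-K1 was at 102.3, 128.5, 55.6, 64.7 and 94.0 CPM in controls and at 68.0, 19.4, 579 and 175.7 in Pbrm1-fl tumors. Psmb8 was at 5.94, 7.64, 3.77, 3.14 and 7.48 CPM in controls and at 6.17, 1.54, 56.9 and 13.2 in Pbrm1-fl tumors, the lowest resting on 17 counts. Tap2 was at 17.3, 24.8, 13.1, 33.3 and 32.9 CPM in controls and at 28.1, 15.9, 111.9 and 59.7 in Pbrm1-fl tumors. Replicate 2 was the lowest tumor for H2-K1 and Psmb8. For Psmb9, 3 of the 4 Pbrm1-fl tumors were above every control. Replicate 3 also had the lowest Pbrm1 of its group, 102 CPM, and the most Ptprc, 24.1 CPM, in a group at 13.2, 6.34, 24.1 and 6.29 CPM; what part either plays was not tested. Ptprc was at 10.3, 11.6, 6.69, 11.4 and 21.5 CPM in controls, a log2 fold change of 0.02.

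Without replicate 3 the hSS1 differences were smaller, by unequal amounts. The log2 fold change of Psmb8 went from 1.80 (SE 0.84) to 0.33, of H2-K1 from 1.24 (SE 0.78) to -0.0045, of Tap2 from 1.15 to 0.52, of Tap1 from 0.89 to 0.49 and of Psmb10 from 0.77 to 0.10. That of Psmb9 went from 1.71 to 0.95 and of Nlrc5 from 1.31 to 0.69, while Tapbp kept 1.06 (edgeR adjusted p = 0.181). Slopes against Ptprc in hSS1 passed for no member and for 0% of genes with edgeR (DESeq2 was not run on them). An unadjusted p under 0.05 was found for 5 members and for 1723 of 17785 genes. With Ptprc as covariate all 10 log2 fold changes between the hSS1 groups were positive, with a median of 1.04. Of the members 5 had an unadjusted p under 0.05, as had 3281 of 17785 genes. None of the 10 was called with edgeR there, and 0.0337% of genes were; DESeq2 was not run on that fit. Of the 8 macrophage markers, 7 had lower values in hSS1 Pbrm1-fl than in control tumors without the covariate, and 13 of 14 constitutive proteasome genes did, 7 of these with an unadjusted p under 0.05; none passed with edgeR, and their part in the class I values was not tested.

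The Pbrm1-fl effects of hSS1 and hSS2 differed in 1 member, Tapbp. The Pbrm1-fl effect on Tapbp was larger in hSS1 by 1.09 log2 units (SE 0.30, edgeR adjusted p = 0.0338), where 2.86% of genes differed in either direction. The call was lost without hSS1 control replicate 1 (adjusted p = 0.0653), 2 (0.0535) or 3 (0.0810) or hSS1 Pbrm1-fl replicate 1 (0.114) or 3 (0.0583), and with controls of the same range of mouse numbers (0.93, edgeR adjusted p = 0.301). For the other 9 the difference was 0.06 (Tap1) to 0.58 (Nlrc5), none passing. Without hSS1 Pbrm1-fl replicate 3 all of these 9 differences were negative, from -0.04 (Nlrc5) to -1.13 (H2-K1), and none passed. The hSS1 and hSS2 counts are separate tables, so table and fusion cannot be told apart. The study also reports that Pbrm1 expression was reduced less in hSS1 than in hSS2 Pbrm1-fl tumors. The part of this difference in the values above was not tested.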

How the data were processed

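RNA was measured in 46 tumors, 37 hSS2 and 9 hSS1. The authors deposited raw read counts, whole numbers for each gene and tumor, in a separate table for each fusion. Per the study's methods and the submitters' processing notes, ribosomal RNA-depleted directional libraries were read as pairs, aligned to mm10 with STAR 2.7.11 and counted with featureCounts 1.6.3. Strand and multi-mapping settings are not given in the sources used here, so reads of H2-K1, H2-D1 and the H2-Q and H2-T genes may be shared between them, and those of Psmb9 and Tap1, which overlap on opposite strands, may be too.

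Symbols, positions and exon lengths came from GENCODE M21 (GRCm38). Groups came from the sample titles, and replicates are numbered by accession order. Counts were filtered with filterByExpr, scaled by TMM and tested with edgeR 4.0.16 (R 4.3.3) in robust quasi-likelihood fits, 1 over the 37 hSS2 libraries, 1 over the 9 hSS1 libraries and 1 over all 46 for the difference of the Pbrm1-fl effects. Tests were two-sided, with a threshold of 0.05 on p adjusted over all genes tested. P-values measure the spread between tumors. CPM used TMM-scaled library sizes, with a prior count of 2 for log2 CPM. DESeq2 1.42.0 served as an alternative, with others that added leukocyte or muscle covariates, changed the scaling, filter, controls or threshold, or left out a tumor. The muscle covariate, and same-range controls with Ptprc, were added after seeing the data. Fits were tested on simulated counts.

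The text names all 10 class I genes, Ptprc, the targeted genes, genes of the marker and pathway lists that passed, and the 10 genes most alike with a mean of at least 1 CPM. The members and lists were chosen with earlier results of these data known.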

Additional observations from a re-analysis of the deposited data

Results flagged for a closer look

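One tumor stood far from its group. In hSS2 Arid1a-fl tumors, replicate 3 had 15.2 CPM of Psmb8, and the next of the 8 had 8.16 CPM. It was 1 of 50 combinations of gene and group looked at in this way, and chance alone would single out about 1 in 20.

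The Pbrm1-fl effect on Tapbp differed between the fusions, by 1.09 log2 units more in hSS1 than in hSS2, as a test of the difference itself found (SE 0.30, edgeR adjusted p = 0.0338). Tapbp was higher than all 5 controls in 4 of 4 hSS1 Pbrm1-fl tumors and higher than all controls in 0 of 8 hSS2 Pbrm1-fl tumors. All 8 of these hSS2 tumors were above the median of their controls. The call did not hold with controls of the same range of mouse numbers (0.93, adjusted p = 0.301).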

How the results depend on the processing

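Other than leaving out a tumor, and counts of members apart, 427 alternative values were computed for a chosen set of results. Of these, 384 kept their direction and side of the threshold, 13 gained a call, 30 lost one and 0 turned sign. The threshold of 0.01 was among the alternatives, here and in the counts of sign turns below. It reuses the value of the main fit, which can then neither turn sign nor gain a call. The set held no single member for Arid1b-fl over control or Arid1a-fl over Arid1b-fl, and only Tapbp for the difference of effects. Over all members, with a tumor left out or not, 76 of 460 values turned sign for Arid1b-fl over control. For the difference of effects 20 of 180 did, and at most 5 in any other comparison, none of them called. With Ptprc as covariate, positive members for Arid1b-fl over control went from 8 to 2. Against controls of the same range of mouse numbers alone, the members called went from 5 to 1 for hSS2 Pbrm1-fl over control, from 8 to 1 over Arid1a-fl, from 4 to 0 over Arid1b-fl and from 1 to 0 for the difference of effects; with Ptprc as covariate as well, the last 2 were also 0 and Arid1a-fl over control went from 0 to 2 (Tap1 and Psmb8, lower). These fits use fewer controls. Arid1a-fl over control came to 1 with Ptprc, with leukocyte markers or with DESeq2, in each case Nlrc5. Pbrm1-fl over Arid1b-fl came to 7 with leukocyte markers and to 1 at a threshold of 0.01, where the difference of effects came to 0. In hSS1, 1 member (Tapbp) passed with leukocyte markers or DESeq2. Shares of all genes called are not given here for Arid1a-fl over control with controls of its own range. Nor are they given for leukocyte markers outside Pbrm1-fl over control, so those member counts cannot be set against a rate over all genes. Causes were not tested. Leaving out 1 tumor at a time gave 4 to 6 members for Pbrm1-fl over control, 8 to 9 over Arid1a-fl, 2 to 4 over Arid1b-fl, 0 to 1 for Arid1a-fl over control, 0 to 1 for the difference of effects (hSS1 tumors only), and 7 to 9 for slopes against Ptprc in hSS2; the comparisons of Arid1b-fl with control and with Arid1a-fl, and both in hSS1, stayed at 0. The value of Tapbp over these fits was -0.0351 to 0.0875 for Pbrm1-fl over control and -0.0394 to 0.0048 for its slope, and that of H2-K1 in hSS1 was -0.0045 to 1.65. Over all genes, edgeR called 1476 for hSS2 Pbrm1-fl over control and DESeq2 903 higher and 1379 lower; the other pairs of counts differing by over 1.5 times were 637 against 724 and 1016 for Arid1a-fl over control, 11 against 0 and 18 for Arid1b-fl over control, 20 against 101 and 122 for Arid1a-fl over Arid1b-fl, 878 against 626 and 949 for Pbrm1-fl over Arid1b-fl, 1 against 472 and 772 in hSS1, and 622 against 658 and 502 for the difference of effects. No paired analysis was possible because the labels give no replicate numbers that groups share; littermates served as controls per the study's methods, but the labels do not say which mice were littermates. In hSS2 a term for the range of mouse numbers is the same contrast as the controls of the same range. Genes with few counts, such as Psmb8 in hSS1, limit what the smaller groups can show.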
